A study of Mus musculus with 11 samples.

Results

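DNA methylation was described around 8 genes for transcription factors of the myeloid lineage in the mouse: Spi1, Cebpa, Cebpb, Cebpd, Cebpe, Irf8, Irf4 and Klf4. The window of a gene ran from 5 kb before to 5 kb after its GRCm38 span, and every C position with a coverage of 10 or more reads was taken. The 8 windows held 1236 of the 1961722 C positions listed in any of the 11 libraries. They held 52 of the 107074 tiles of 1000 bp that were tested in LSK cells, where a tile needed at least 3 C positions listed in all libraries compared. The level of a tile is the percent of its reads that kept a C after bisulfite conversion, that is, were methylated. It is an average over the sorted cells, so fewer methylated cells and less methylation in every cell cannot be told apart.

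The libraries came from enhanced reduced representation bisulfite sequencing, which reads C positions next to MspI sites (CCGG), so most of each window outside CpG-rich stretches was not measured. A pair of populations of bone marrow cells of C57BL/6 mice were sorted: LSK (Lin- Sca1+ cKit+), which holds the blood stem cells, and GMP (Lin- Sca1- cKit+ CD34+ FcgR+), the granulocyte-macrophage progenitors. All mice were 12 months old, carried the floxed Dnmt3a alleles and came under the same protocol of 5 poly(I:C) injections, the controls included. The groups were 3 Dnmt3a knockout LSK libraries (1327, 1333 and 1334, with Mx1-Cre), 3 control LSK libraries (1326, 1330 and 1331, without Cre), 2 GMP libraries labelled knockout (178 and 179, with Mx1-Cre) and 2 control GMP libraries (346 and 349, without Cre). GMP library 352 carries labels that name both genotypes. It was kept apart and entered no comparison. Mx1-Cre is driven by an interferon-responsive promoter that is active in blood cells and also in other tissues. The labels do not tie libraries to animals, so p-values measure only the spread between these libraries.

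Dnmt3a is a methyltransferase that places new methyl groups on DNA. Spi1 encodes PU.1, an ETS factor needed for the myeloid and B lineages, and Cebpa encodes the factor needed to form GMP from earlier progenitors. Cebpb acts when granulocyte output rises under stress, Cebpd is its close relative, and Cebpe drives late granulocyte maturation. Irf8 favours monocytes and dendritic cells over neutrophils, Irf4 is its relative and, like it, binds DNA together with PU.1, and Klf4 acts in monocyte differentiation. The windows also reach Mybpc3 beside Spi1, A530013C23Rik beside Cebpb, Spidr beside Cebpd and Gm12506 beside Klf4. Exons and introns were not used here.

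The 300-base stretches around the annotated starts of Cebpb, Irf4 and Irf8 are shown because they show how much of a promoter the assay read, from nearly all CpGs to few. They come from RefSeq on GRCm38.p6, run 5′ to 3′ on the strand of the gene with 250 bases before and 50 after the start, and have in capitals the CpGs with a C position listed in all 10 assigned libraries.
Cebpb, chr2:167688665-167688964, plus strand: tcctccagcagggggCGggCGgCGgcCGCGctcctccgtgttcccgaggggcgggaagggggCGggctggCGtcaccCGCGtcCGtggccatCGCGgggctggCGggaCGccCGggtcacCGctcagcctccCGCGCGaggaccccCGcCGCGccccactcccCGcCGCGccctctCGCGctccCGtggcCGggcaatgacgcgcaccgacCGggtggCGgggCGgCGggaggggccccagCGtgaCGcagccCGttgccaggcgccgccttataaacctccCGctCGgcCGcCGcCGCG
Irf8, chr8:120736108-120736407, plus strand: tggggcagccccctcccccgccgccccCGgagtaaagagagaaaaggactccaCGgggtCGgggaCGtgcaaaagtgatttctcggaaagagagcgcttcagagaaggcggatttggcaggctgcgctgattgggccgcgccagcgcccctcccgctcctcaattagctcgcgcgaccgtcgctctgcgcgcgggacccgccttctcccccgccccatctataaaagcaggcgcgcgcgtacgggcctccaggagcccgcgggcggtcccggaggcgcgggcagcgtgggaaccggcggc
Irf4, chr13:30748983-30749282, plus strand: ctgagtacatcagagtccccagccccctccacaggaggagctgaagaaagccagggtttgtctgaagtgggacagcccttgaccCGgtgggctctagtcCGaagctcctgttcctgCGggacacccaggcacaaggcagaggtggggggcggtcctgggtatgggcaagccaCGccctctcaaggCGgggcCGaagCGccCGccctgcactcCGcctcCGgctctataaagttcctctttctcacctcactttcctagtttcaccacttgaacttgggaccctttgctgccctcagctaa

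In the Cebpb stretch 42 of 50 CpGs were read, in that of Irf4 10 of 11 and in that of Irf8 4 of 38. The table also held Klf4, with 4 of 40 CpGs read, Cebpa, with 3 of 29, and a second start of Irf8, with 0 of 8. The letters CCGG occurred in 52.8% of all 32851 promoters of this length. Levels over the C positions read in these stretches were near 0 in every group. The Cebpb stretch had 0.260% ± 0.179 in knockout LSK and 0.292% ± 0.195 in control LSK (SD, n = 3 each). It had 0.0712% ± 0.0641 in labelled knockout GMP and 0.0571% ± 0.0513 in control GMP (SD, n = 2 each). The Irf4 stretch had 0.528% ± 0.181 in knockout LSK, 0.557% ± 0.352 in control LSK, 0.0686% ± 0.0117 in labelled knockout GMP and 0.345% ± 0.364 in control GMP. Both stretches were almost free of methylated reads in all 4 groups.

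LSK libraries were the deeper ones, with 157.4 to 181.1 M reads summed over their C positions and a median coverage of 85 to 103. For GMP libraries the sums were 95.4 to 109.7 M and the medians 50 to 59. Of 356 C positions of Dnmt3a that every control listed, 5 (chr12:3903653-3904031) were missing in all 3 knockout LSK libraries. These 5 were picked for being missing there, so the 0 in knockout LSK is no test of the deletion. They were then looked up in the GMP libraries. Of the GMP libraries labelled knockout, 178 listed 4 and 179 listed 5, with coverage, relative to the gene's other positions, at 34.1% and 59.7% of the mean of the control GMP libraries. They are therefore called labelled knockout throughout. Library 352 listed 0. The knockout library 1333 listed 118988 positions that no other library did, against 6313 to 35250 in the others. Libraries also fell into a set that listed 1226 to 1470 positions of the Y chromosome (all GMP libraries, knockout 1327 and control 1326) and a set that listed 211 to 229 (the other LSK libraries). The cell type of the sort could not be checked against marker transcripts, which were not analysed here.

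Every member but Cebpe had tiles with almost no methylation. In 18 of the 52 tiles, which held 734 C positions, the level was under 5% in all 10 assigned libraries, with a highest value of 4.33%. They were all 3 tested tiles of Cebpd, 3 of 5 of Cebpa, 3 of 7 of Cebpb, 4 of 5 of Klf4, 2 of 5 of Irf4, 2 of 9 of Spi1, 1 of 16 of Irf8 and 0 of 2 of Cebpe. The level chose these tiles, so their small differences between genotypes are not a result. The tile of the Cebpa start (chr7:35119001-35120000, 95 C positions) had 0.252%, 0.747% and 0.240% in knockout LSK, against 0.417%, 0.401% and 0.418% in control LSK, and the ranges overlapped.

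The remaining tiles covered the whole range of levels, and the genotype differences lay among them. In LSK, 2 of the 52 member tiles were lower in knockouts by the criteria of an adjusted p under 0.05 and a difference of at least 20 points in the level pooled over a group's reads. Both lie inside a gene, 1 in Spi1 and 1 in Irf8. Over all 107074 tiles, 0.871% passed in that direction. No member tile was higher, against 0.00280% of all tiles. At an unadjusted p under 0.05 there were 18 member tiles, against 13.1% of all tiles. In 20 member tiles every knockout library was below every control library, against 15.0% of all tiles, and in 0 every one was above, against 3.38%.

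The Spi1 tile is chr2:91113001-91114000, 31.1 kb above the low-coordinate end of the gene and inside its span. It had 26.9%, 38.1% and 26.1% in knockout LSK, against 54.9%, 49.4% and 65.4% in control LSK. All 3 knockouts were below all 3 controls. The means were 30.4% ± 6.73 in knockouts and 56.6% ± 8.17 in controls (SD, n = 3 each), and the pooled level differed by -27.2 points (quasi-binomial F test with Benjamini-Hochberg adjustment, adjusted p = 0.0364). The tile rests on 3 C positions of the reverse strand, with 144 or more reads per library in all. They lie within the length of 1 read, may share reads and are not independent. At 91113398 the level averaged 24.1% in knockout and 73.2% in control LSK, and at 91113404 it averaged 42.0% in knockout and 70.1% in control LSK. At the third, 91113431, the groups overlapped, with 13.9%, 40.4% and 20.7% in knockout LSK, against 14.6%, 24.5% and 40.7% in control LSK. The adjusted p was above 0.05 without control 1326 (0.149), 1330 (0.0988) or 1331 (0.177) and without knockout 1327 (0.0819) or 1334 (0.151), while the difference stayed between -31.0 and -22.5 points.

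The Irf8 tile is chr8:120750001-120751000, 14.1 kb above the low-coordinate end and inside the gene. It had 38.9%, 36.9% and 37.5% in knockout LSK, against 71.9%, 56.1% and 58.8% in control LSK. The knockouts lay within a few points of each other and all below the controls. The means were 37.8% ± 1.04 in knockouts and 62.2% ± 8.43 in controls (SD, n = 3 each), with a pooled difference of -25.9 points (adjusted p = 0.0186, same test). Of its 8 C positions, the 3 at the low-coordinate side (120750685, 120750693 and 120750721) were highly methylated in both groups, with means of 79.1 to 90.9% in knockouts and 86.1 to 92.8% in controls. The other 5, at 120750774 to 120750955, averaged at most 27.5% in knockouts and at least 41.3% in controls. The difference thus lay in the upper part of the measured stretch. The adjusted p was above 0.05 without control 1326 (0.0926, with -19.9 points), 1330 (0.0701) or 1331 (0.0717) and without knockout 1334 (0.0882). Without 1333, the knockout with the many positions of its own, both tiles stayed past the thresholds, at -30.2 points for Spi1 (adjusted p = 0.0216) and -25.5 points for Irf8 (adjusted p = 0.0390). In both tiles knockout 1327 was below control 1326 within the set that lists many Y-chromosome positions, and both knockouts were below both controls within the other set. This order follows from all 3 knockouts being below all 3 controls and adds nothing to it. With the set as a term, chosen after seeing the data, the Irf8 tile passed (-26.6 points, adjusted p = 0.0276) and the Spi1 tile did not (-27.3 points, adjusted p = 0.0662).

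**Figure D1:**
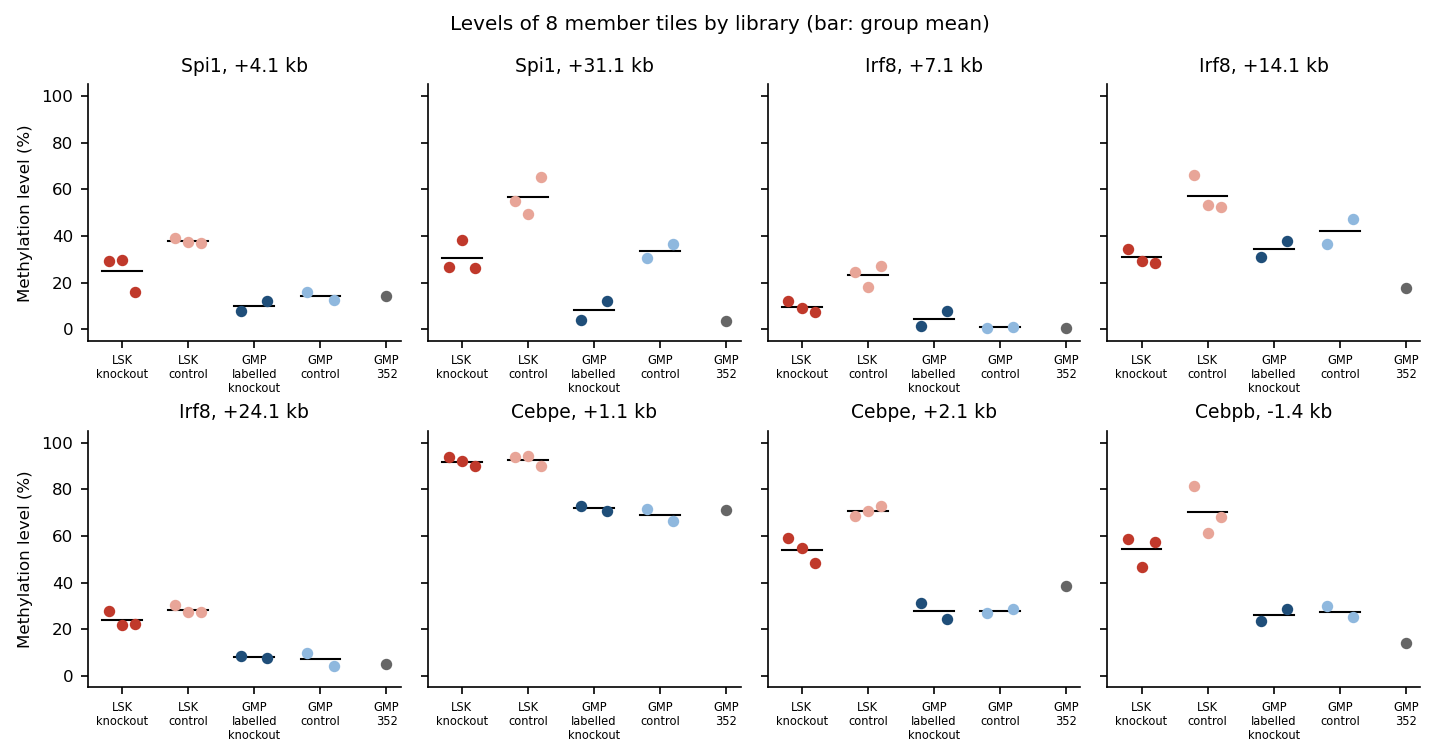
Methylation level in percent (vertical axis) of the 8 member tiles that passed in any comparison, by library; each point is a library, bars are group means, and titles give the distance of the tile's centre from the gene's low-coordinate end. Levels are over C positions listed in all 10 assigned libraries, so that they can differ from those of a single comparison. The Spi1 tiles at +31.1 and +4.1 kb separate the genotypes in both cell types. The Cebpe tiles separate GMP from LSK, and the Cebpe tile at +2.1 kb also separates the genotypes in LSK.

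**Figure D2:**
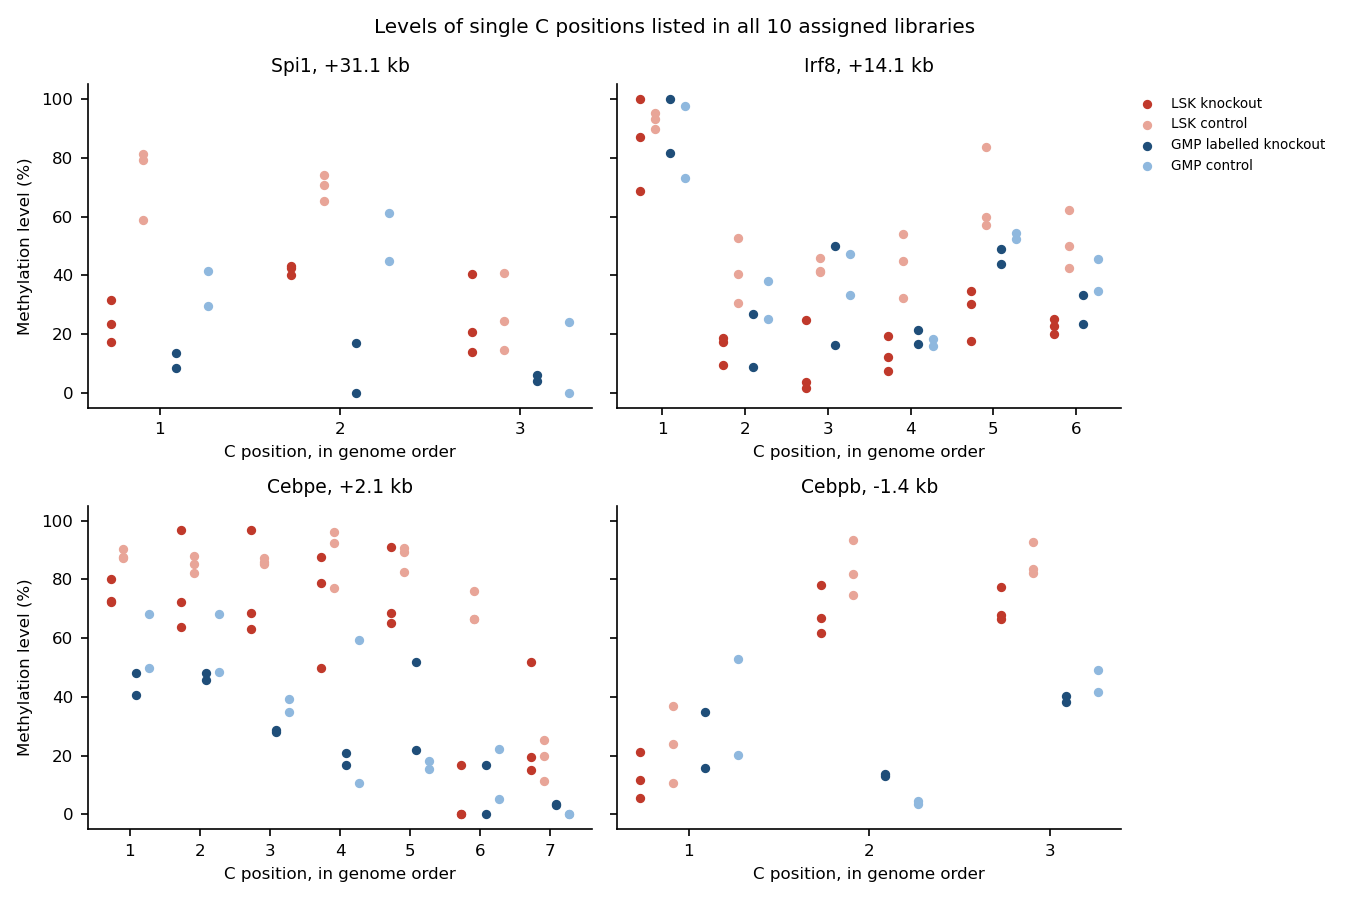
Level in percent (vertical axis) of each C position listed in all 10 assigned libraries in 4 tiles, in genome order (horizontal axis); each point is a library, coloured by group. In the Irf8 tile the first position is high in all groups and at the others all knockout LSK points are below all control LSK points; in the Cebpb tile the second position is near 4.0% in control GMP and 83.4% in control LSK on average.

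Other tiles of Irf8 had smaller differences. The tile at chr8:120745001-120746000 had 3.47%, 0.778% and 1.79% in knockouts, against 11.1%, 11.1% and 9.84% in controls (-8.63 points, adjusted p = 0.0451). It passed the adjusted p but not the 20 points. The tile at chr8:120743001-120744000 had 12.3%, 9.16% and 7.53% in knockouts, against 24.7%, 18.3% and 27.2% in controls (-13.7 points, adjusted p = 0.0711). In 6 of the 16 Irf8 tiles every knockout was below every control, against 15.0% of all tiles, and in the other 10 the groups overlapped. Among those that overlapped is chr8:120739001-120740000, with 88.4%, 91.7% and 90.6% in knockouts, against 89.5%, 91.0% and 90.2% in controls. Low and high tiles alternated along the gene.

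Spi1 showed the same mixture. The tile at chr2:91086001-91087000, 4.13 kb above the low-coordinate end, had 29.1%, 29.5% and 16.0% in knockout LSK, against 39.2%, 37.6% and 37.1% in control LSK (adjusted p = 0.141). The tile below the gene at chr2:91079001-91080000 had 12.8%, 3.26% and 9.98% in knockouts, against 17.5%, 17.7% and 18.6% in controls (-9.15 points, adjusted p = 0.212). In each the knockouts were all below the controls, without passing the test. The tile at chr2:91089001-91090000 was methylated throughout, with 94.9%, 93.0% and 93.6% in knockouts, against 93.3%, 97.0% and 98.0% in controls.

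**Figure D3:**
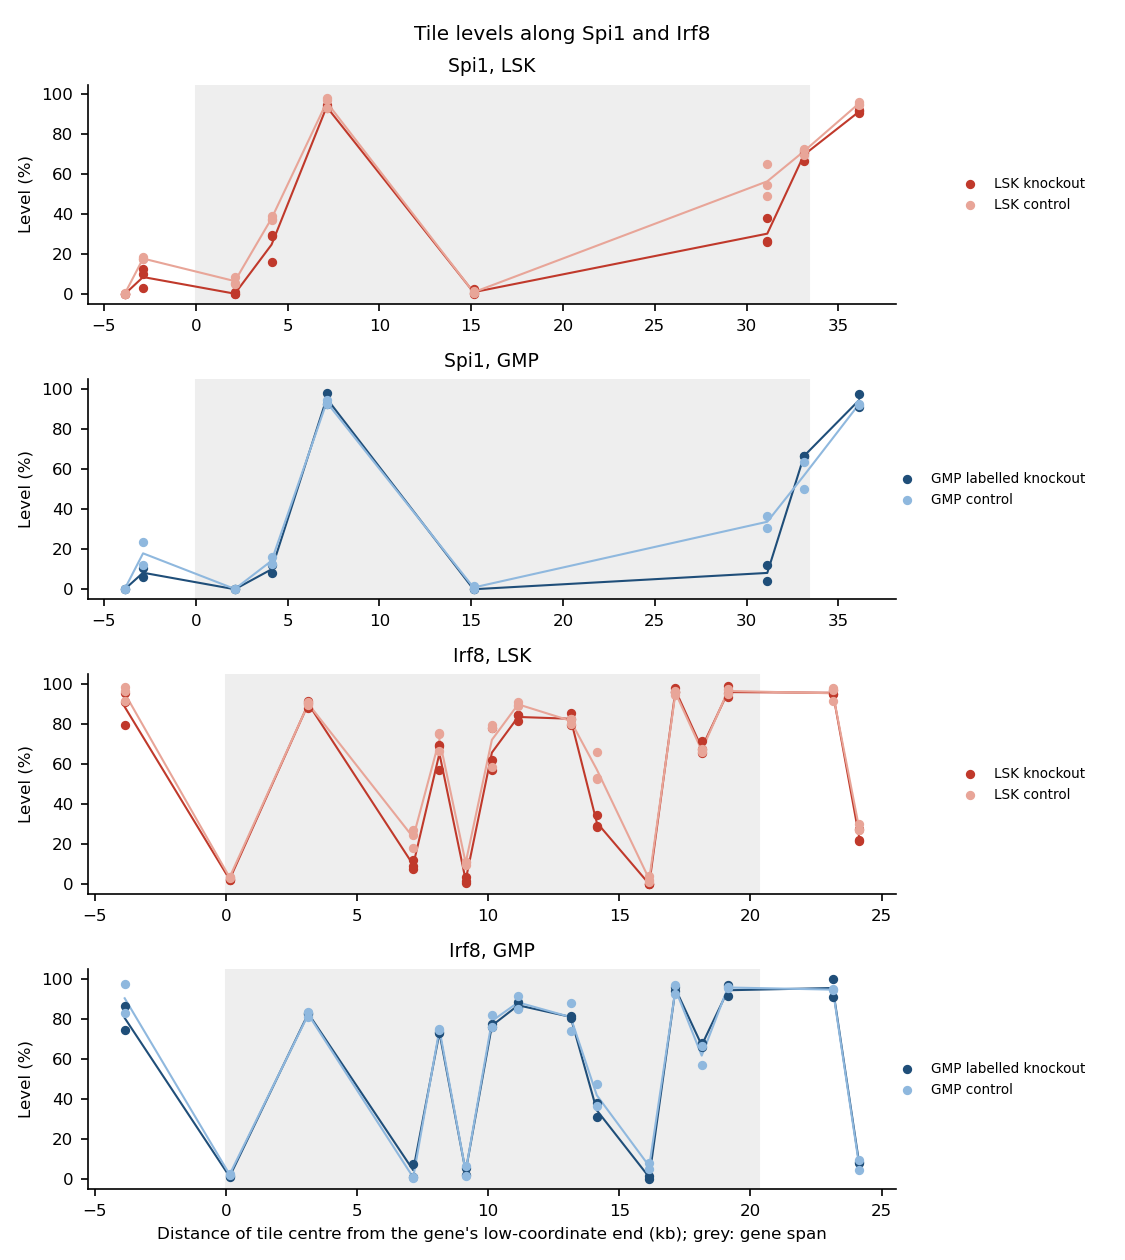
Level in percent (vertical axis) of each tested tile along Spi1 and Irf8 by distance of its centre from the gene's low-coordinate end in kb (horizontal axis); points are libraries, lines join group means, and grey marks the gene span. Tiles without enough C positions leave gaps that the lines cross. Knockout LSK lies below control LSK at +31.1 kb in Spi1 and at +14.1 kb in Irf8. Most tiles near 100% do not separate in LSK. The Irf8 tiles near 0 at +0.1, +9.1 and +16.1 kb do separate in LSK (-1.04, -8.63 and -2.36 points).

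Among the Cebp genes, 1 tile passed the adjusted p in LSK without reaching 20 points. It is chr7:35116001-35117000, centred at -2.79 kb from the low-coordinate end of Cebpa, and had 77.5%, 75.0% and 72.6% in knockouts, against 90.2%, 87.3% and 85.1% in controls (-12.6 points, adjusted p = 0.0356). Of its 3 C positions, 35116968 averaged 47.0% in knockouts and 86.2% in controls, while 35116006 averaged 75.9% and 35116016 95.6% in knockouts, against 79.7% and 97.0% in controls. A single C position thus carried most of the difference. How many of all LSK tiles passed the adjusted p with less than 20 points was not counted.

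The largest Cebpb difference lay above the gene, at chr2:167692001-167693000, with 76.8%, 88.1% and 66.6% in knockout LSK, against 95.3%, 93.3% and 93.4% in control LSK (-17.3 points, adjusted p = 0.0561). The knockouts were below the controls and spread more widely. Cebpe had its largest difference in the tile that holds the high-coordinate end of the gene (chr14:54712001-54713000), with 58.9%, 54.9% and 48.4% in knockouts, against 68.6%, 70.9% and 72.8% in controls (-16.8 points, adjusted p = 0.0574). Cebpd had no tile above 1.29% in LSK, and its largest difference was 0.211 points (adjusted p = 0.872).

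For Irf4 the largest LSK difference was in chr13:30748001-30749000, just below the gene, with 26.3%, 35.1% and 30.3% in knockouts, against 36.0%, 25.7% and 41.1% in controls (-4.02 points, adjusted p = 0.760). The groups overlapped. For Klf4 it was in chr4:55529001-55530000 inside the gene, with 4.64%, 11.7% and 8.46% in knockouts, against 17.2%, 21.7% and 22.0% in controls (-11.6 points, adjusted p = 0.0822). Here the knockouts were all below the controls, in a gene whose other 4 tiles stayed under 5%.

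Member tiles were set beside all tiles of a like level in control GMP libraries, which took no part in the LSK comparison. Of the 15 member tiles at 10 to 80%, 13 had a knockout minus control difference below 0 in LSK, against 76.2% of all such tiles, with a median of -5.26 points, against a median of -3.80 points over 16116 tiles. In 7 of the 15 every knockout was below every control, against 30.8% of all such tiles. Of the 14 member tiles over 80%, 9 had one below 0, against 61.6% of all such tiles, with a median of -2.92 points, against -0.609 points over 57217 tiles. Of the 23 under 10%, 15 had one below 0, against 54.1%, with a median of -0.141 points, against -0.0263 points over 26817 tiles. Over all 52 member tiles the median was -0.901 points, against -0.373 points over all 107074.

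In GMP, where 2 labelled knockout libraries stand against 2 controls, no member tile passed in either direction among 55 tested. Over all 107150 tiles 0.00% passed, with 0 lower and 0 higher. When the spread was moderated only with tiles at 5 to 95%, 0.248% of all tiles were lower and 0.0271% higher, and again 0 members. At an unadjusted p under 0.05 there were 6 members, against 8.71% of all tiles. In 19 member tiles both labelled knockouts were below both controls, against 25.9% of all tiles, and in 5 both were above, against 11.3%. The median member difference was -0.271 points, against -0.345 points over all tiles. Of the 16 member tiles at 10 to 80% in control LSK, 11 had a GMP difference below 0, against 66.5% of 16281 tiles, with a median of -1.70 points, against -2.43 points, and in 5 both labelled knockouts were below both controls, against 33.8%. Since no tile of the whole table passed, the count of 0 does not show that members did not differ in GMP.

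The Spi1 tile at chr2:91113001-91114000 had the largest GMP difference of any member, with 4.17% and 12.2% in labelled knockout GMP, against 30.8% and 36.8% in control GMP. Both labelled knockouts were below both controls, by a pooled -23.1 points (p = 0.0102 before and 0.567 after adjustment, quasi-binomial F test). These levels rest on 3 C positions, with 72 reads in 178, 197 in 179, 130 in 346 and 87 in 349. Library 352 had 3.51% there (95% Wilson interval 1.37 to 8.68%, counting error only). The Irf8 tile at chr8:120750001-120751000 had 31.0% and 37.9% in labelled knockout GMP, against 36.4% and 47.5% in control GMP over 6 C positions (-7.40 points, adjusted p = 0.690), and the groups overlapped. Library 352 had 17.9% (14.4 to 22.1%).

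The largest GMP differences of the other members did not pass the test either. For Irf4 it was chr13:30761001-30762000, inside the gene, with 60.9% and 75.7% in labelled knockouts, against 90.8% and 80.6% in controls (-18.7 points, adjusted p = 0.581). For Cebpb it was chr2:167686001-167687000, with 56.3% and 51.3% in labelled knockouts, against 69.4% and 71.2% in controls (-16.2 points, adjusted p = 0.567). For Irf8 it was chr8:120731001-120732000, at the lower edge of the window, with 77.3% and 71.6% in labelled knockouts, against 88.9% and 88.2% in controls (-14.5 points, adjusted p = 0.571). The controls had only 45 and 51 reads in that Irf8 tile.

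These 3 tiles had no overlap between the groups. Those of Irf4 and Irf8 were not among the tiles tested in LSK. The Klf4 tile at chr4:55529001-55530000 had 9.18% and 1.89% in labelled knockouts, against 7.87% and 26.7% in controls (adjusted p = 0.670), with 60 or more reads per library. Cebpa reached -7.73 points in chr7:35123001-35124000, and Cebpe 2.69 points in chr14:54711001-54712000, both with overlapping groups. Cebpd stayed within 0.192 points.

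**Figure D4:**
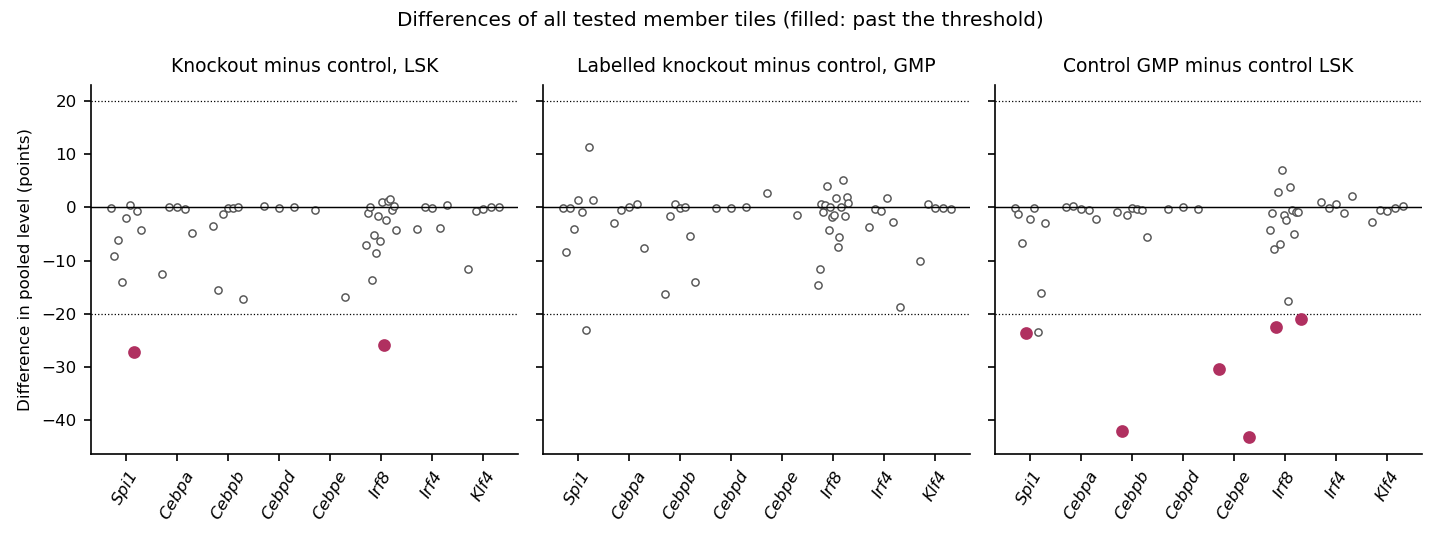
Difference in pooled level in points (vertical axis) of every tested tile of the 8 members (horizontal axis; tiles of a member run from low to high coordinate); filled points passed the adjusted p of 0.05 and 20 points (dotted lines). The filled points are Spi1 and Irf8 in the LSK panel, none in the GMP panel, and Spi1, Cebpb, Cebpe and Irf8 tiles in the panel of control GMP minus control LSK.

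With both cell types in a single fit and cell type as a term, 1 of 52 member tiles was lower in knockouts, against 0.600% of 100150 tiles, and 0 were higher, against 0.000999%. It was the Spi1 tile at chr2:91113001-91114000, with a mean within-cell-type difference of -25.2 points (adjusted p = 0.00224, quasi-binomial F test). The tile rests on 3 C positions, with few reads in GMP. All 5 knockout and labelled knockout libraries were below the controls of their own cell type. Such a separation in both cell types was seen in 7 member tiles, against 6.46% of all tiles.

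Another 6 member tiles passed the adjusted p in this fit with less than 20 points. The largest of these were the Irf8 tile at chr8:120750001-120751000 (-17.5 points, adjusted p = 0.0203), the Cebpb tile at chr2:167692001-167693000 (-15.7 points, adjusted p = 0.0106) and the Klf4 tile at chr4:55529001-55530000 (-11.5 points, adjusted p = 0.0258). The other 3 were the Spi1 tiles at 91084001 and 91086001 and the Irf8 tile at 120752001. The share of all tiles that passed the adjusted p with less than 20 points was not counted. In this fit 16 members had an unadjusted p under 0.05, against 15.6% of all tiles. In GMP the Cebpb tile had 67.5% and 79.3% in labelled knockouts, against 86.2% and 89.9% in controls.

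Whether a genotype difference was itself different between the cell types was tested with an interaction term. No member tile passed, against 0.00200% of all tiles lower and 0.000999% higher, and 6 members had an unadjusted p under 0.05, against 5.69% of all tiles. For the Irf8 tile at chr8:120750001-120751000 the GMP difference minus the LSK difference was 20.3 points (unadjusted p = 0.0184, adjusted p = 0.836). For the Irf8 tile at chr8:120743001-120744000 it was 17.7 points (adjusted p = 0.745) and for the Spi1 tile at chr2:91113001-91114000 it was 4.10 points (adjusted p = 0.964). A difference between LSK and GMP in the effect of genotype was therefore not shown for any member.

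Without the deletion, both tested tiles of Cebpe were lower in GMP than in LSK. Comparing control GMP with control LSK, 6 of 52 member tiles were lower in GMP, 2 of Cebpe, 2 of Irf8 and 1 each of Spi1 and Cebpb, against 0.772% of 104839 tiles. No member was higher, against 0.113%. In 22 member tiles both GMP controls were below all LSK controls, against 18.1% of all tiles, and in 3 both were above, against 14.0%.

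The Cebpe tile at chr14:54712001-54713000 had 26.8% and 28.5% in control GMP, against 68.6%, 70.9% and 72.8% in control LSK (-43.2 points, adjusted p = 0.00231). The other Cebpe tile, chr14:54711001-54712000 inside the gene, had 65.5% and 53.6% in control GMP, against 91.6%, 88.0% and 87.0% in control LSK (-30.4 points, adjusted p = 0.00796). Neither tile had overlapping groups. In the first, knockout LSK lay between control GMP and control LSK, and the labelled knockout GMP libraries, at 27.5% and 23.0%, were close to the control GMP libraries, at 25.6% and 26.2% over 9 C positions.

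The Cebpb tile centred at -1.41 kb from the start of the gene, chr2:167687001-167688000, had 29.7% and 25.3% in control GMP, against 81.4%, 61.3% and 68.1% in control LSK (-42.2 points, adjusted p = 0.0164). Of its 3 C positions, 167687899 averaged 4.0% in control GMP and 83.4% in control LSK, 167687925 averaged 45.4% in control GMP and 86.2% in control LSK, and 167687002 averaged 36.5% in control GMP and 23.8% in control LSK. The first of these shows the widest gap. In knockout LSK the tile had 58.9%, 46.6% and 57.3%, all below the controls without passing the test (-15.5 points, adjusted p = 0.265).

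The Spi1 tile at chr2:91086001-91087000 had 16.1% and 12.4% in control GMP, against 39.2%, 37.6% and 37.1% in control LSK (-23.7 points, adjusted p = 0.00944). The Irf8 tile at chr8:120743001-120744000, inside the gene, had 0.637% and 0.990% in control GMP, against 24.7%, 18.3% and 27.2% in control LSK (-22.5 points, adjusted p = 0.0107). The Irf8 tile above the gene, chr8:120760001-120761000, had 9.65% and 4.35% in control GMP, against 30.2%, 27.2% and 27.3% in control LSK (-21.0 points, adjusted p = 0.0199). Its difference was the less stable to processing, at -23.9 to -11.8 points over the alternatives that could be fitted. The other Irf8 tile ranged from -25.1 to -20.7 points. In all 6 tiles the groups were apart. This holds by necessity for control 1326 alone, the LSK control that lists Y-chromosome positions as the GMP libraries do. The GMP libraries were sequenced less deeply than the LSK libraries, and the part of depth in these differences was not tested. With the Y-listing set as a term, chosen after seeing the data, the comparison rests on 2 GMP controls and 1326, the differences were -53.8 to -23.0 points, and 0 of the 6 passed (adjusted p from 0.0615 to 0.166). This comparison and that of knockout LSK share the 3 LSK controls, so that their differences in these tiles are not independent. Left without a control library, the count of such tiles was 0 without 349, 2 without 346, 1 without 1330, 1 without 1331 and 4 without 1326.

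Over whole windows no member passed. The windows of Cebpa, Cebpb, Klf4 and Cebpd had means of at most 5.41% in control LSK and 4.19% in control GMP. A fall of 10 points was therefore impossible there, and no lower call could arise. A window pools all its reads, so tiles near 0 can outweigh the others. In Cebpb 218 of the 236 C positions lay in tiles under 5%. In LSK 0 of 8 windows was lower by the criteria of an adjusted p under 0.05 and 10 points, against 0.307% of 28635 gene windows, and 0 was higher, against 0.00%. At an unadjusted p under 0.05 there were 2 of 8, against 9.59% of all windows. They were Irf8, with 44.3% ± 1.94 in knockouts and 49.8% ± 0.919 in controls (SD, n = 3 each; -5.68 points, adjusted p = 0.177), and Spi1, with 25.1% ± 2.52 in knockouts and 30.1% ± 0.543 in controls (-5.02 points, adjusted p = 0.345). In both genes every knockout window was below every control window.

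The order of the windows by level in control LSK ran from Cebpe at 85.6% ± 1.54 and Irf8 over Spi1 and Irf4 at 25.2% ± 4.77 down to Cebpa at 5.41% ± 0.168, Cebpb at 3.58% ± 0.130, Klf4 at 1.46% ± 0.197 and Cebpd at 0.412% ± 0.324. Spi1 and Irf4 did not differ beyond their spread, and other neighbours were apart by more than it. The windows differ in which CpGs lie near MspI sites, so the order is that of the C positions measured. In GMP no window passed among 28640 (0.00% lower and 0.00% higher), with 0 of 8 at an unadjusted p under 0.05, against 11.6%. The Cebpe window had 49.0% ± 3.54 in labelled knockout GMP and 46.9% ± 6.29 in control GMP, and the Irf4 window 22.4% ± 2.06 in labelled knockout GMP and 25.9% ± 0.228 in control GMP (SD, n = 2 each; -3.37 points, adjusted p = 0.484).

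Further genes of the pathway were described over 3 lists of relatives, partners and targets, beside 0.871% of all tiles lower in knockout LSK. The lists were chosen with earlier results of these data known, so a share above that of all tiles is a description and no test. Of 81 tested LSK tiles of 16 relatives (other Cebp, Irf, Klf and ETS genes) 0 were lower in knockouts, with a median of -0.288 points. Of 118 tiles of 15 partner or opposing factors 5 were lower (4.24%), in Gata2, Zeb2, Gfi1, Runx1 and Nab2, with a median of -0.486 points. Of 38 tiles of 16 myeloid targets 0 were lower, with a median of -0.658 points, against -0.373 points over all tiles. Gfi1, a repressor that favours neutrophils, had the tile with the lowest adjusted p of these, with 4.93% ± 1.45 in knockout LSK and 31.5% ± 1.96 in control LSK (SD, n = 3 each; -26.8 points, adjusted p = 0.000158). It was also the one listed gene whose whole window passed, with 3.13% ± 0.717 in knockouts and 18.7% ± 2.05 in controls (-15.6 points, adjusted p = 0.00846). No tile of these lists was higher in knockout LSK, and none passed in GMP. With the prior from tiles at 5 to 95%, the same Gfi1 tile was lower in GMP, with 39.0% ± 0.214 in labelled knockouts and 74.0% ± 13.5 in controls (SD, n = 2 each; -34.1 points, adjusted p = 0.00214). So was the Gfi1 window, with 16.6% ± 0.513 in labelled knockouts and 29.2% ± 0.237 in controls (-12.6 points, adjusted p = 0.0120), while 0.220% of all windows were lower and 0.0419% higher with that prior and no member window was either.

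Between control GMP and control LSK, 3 of 38 target tiles (7.89%) were lower in GMP, against 0.772% of all tiles. They are 2 of Mpo and 1 of Ctsg, both genes of neutrophil granule proteins. The first is chr11:87799001-87800000 in Mpo, with 51.2% ± 1.96 in control GMP and 90.9% ± 2.11 in control LSK (SD, n = 2 and 3; -40.1 points, adjusted p = 0.00124). Of 80 tiles of relatives 1 was lower, in Irf1. Of 116 tiles of partners 1 was higher (0.862%, against 0.113% of all tiles), the Gfi1 tile, with 70.4% ± 2.74 in control GMP and 31.5% ± 1.96 in control LSK (38.8 points, adjusted p = 0.000388). The shares of the lists are descriptions here too, since earlier results were known when the lists were chosen.

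Of 19563 tiles whose level varied by an SD of at least 5 points over the 10 assigned libraries, those most like the Spi1 tile at chr2:91113001-91114000 and overlapping another gene included tiles in Etv5 (Pearson r = 0.971), Gm31460 and Ormdl3 (0.966), the stretch of Ptbp1, Plppr3 and Mir6910 (0.961) and Ssh1 (0.961). The 10 libraries fall into the 4 groups and share their depth within a cell type, so these values are descriptions.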

How the data were processed

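The labels' protocols describe MspI-digested genomic DNA, fragments of 150 to 400 bp, bisulfite conversion and single-end reads of 50 bp. Bismark, mm10 and GRCm38 are named, without role or version, in the submitters' processing notes. Per the file headers, a row of a deposited table gives a C position, its coverage (a read count) and 2 columns in percent for reads that show C or T. Positions under a coverage of 10 are unlisted, so a missing position is not a level of 0. From these the numbers of methylated (C) and unmethylated (T) reads were computed, then summed over the positions of a tile that all libraries compared listed. The 2 strands of a CpG count as separate positions, and reads carry no molecular identifiers, so intervals and read numbers cover counting error only.

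Each tile was fitted with a quasi-binomial logistic model with an F test. Its dispersion was moderated with limma 3.58.1 (squeezeVar, trend on log coverage, at least 1) in R 4.3.3, and p-values were adjusted by Benjamini-Hochberg over all tiles of the genome-wide table. Gene windows needed at least 5 C positions. The alternatives were a prior from tiles at 5 to 95%, no moderation, limma on logit levels (0.5 reads added), a coverage of 20, only CpGs listed on both strands with their reads merged, at least 5 positions a tile, a grid shifted by 500 bp, positions common to all 10 libraries, mean levels of positions, leaving out each library and, added after seeing the data, the set of libraries by Y-chromosome listing as a term. The test was checked on simulated data in which some tiles were lowered by known amounts. There, as in the real data, the GMP fit with the main settings passed no tile. Its lack of passing tiles therefore cannot show that tiles did not differ. Tiles given with values are those that passed, the largest difference of each member in LSK and in GMP and the tile of an annotated start; others named, such as single C positions and further Irf8 and Spi1 tiles, were chosen after their values were seen. The 8 members and the 3 lists were chosen with earlier results of these data known. Gene spans and promoter sequences came from RefSeq tables of GRCm38.p6, where 5 of the 8 members had a promoter. A result that needs an item withheld for evaluation is not reported here.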

Additional observations from a re-analysis of the deposited data

Results flagged for a closer look

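GMP library 352, which entered no comparison, had 37.8% (95% Wilson interval 33.4 to 42.4%, counting error only) in the Cebpe tile at chr14:54712001-54713000, against 27.5% and 23.0% in labelled knockout GMP and 25.6% and 26.2% in control GMP. Its interval lay above those of both controls. It was the only one of 55 member tiles where 352 lay above both controls by these intervals. In 13 tiles it lay below both, among them the Cebpb tile at chr2:167692001-167693000, with 41.5% in library 352 (36.9 to 46.3%), 67.5% and 79.3% in labelled knockout GMP and 86.2% and 89.9% in control GMP. In the other 41 tiles the intervals were not apart. The same counts were not made over all GMP tiles, so these counts cannot be called particular to the members. The labels of 352 name both genotypes, and its group was not tested.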

How the results depend on the processing

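The count of 2 lower member tiles in LSK became 0 without moderation, with limma on logit levels and with merged strands, and 1 with at least 5 C positions. Merged strands use only CpGs listed on both, which left 17 member tiles and neither of the 2. The count ranged from 0 to 3 when 1 library was left out: 0 without 1326, 1330, 1331 or 1334, 1 without 1327 and 3 without 1333. The count of 1 in both cell types became 0 with merged strands and with at least 5 C positions, since the Spi1 tile has 3, and ranged from 1 to 2 when 1 library was left out. The count of 6 between control GMP and control LSK became 0 without moderation and with merged strands and 3 with at least 5 C positions, and ranged from 0 to 4 when 1 library was left out. With the Y-listing set as a term, an alternative chosen after seeing the data, the count of 2 became 1 and the count of 6 became 0. Counts for GMP, the interaction and the windows were 0 under all alternatives run, which says nothing of stability, since the GMP fit passed no tile of the whole table. The Spi1 tile at 91113001 in both cell types kept its call in all 14 alternatives that could be fitted, with adjusted p from 0.00127 to 0.0452.

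Signs turned only in tiles or windows that had not passed. Leaving out 1 library, the Cebpd tile at 15886001 in LSK ranged from -0.162 (without 1333) to 0.411 points. The Cebpd tile at 15887001 in GMP had 0.0768 points with merged strands and -0.513 to 0.120 (without 346) with 1 library left out. The Cebpe tile at 54711001 in GMP ranged from -4.95 (without 349) to 8.19. Over LSK windows, Cebpd had 0.0663 points with mean levels of positions and -0.188 to 0.0939 (without 1330) with 1 library left out, Cebpb -0.554 to 0.126 (without 1334) and Irf4 -4.07 to 0.463 (without 1331). Over GMP windows, mean levels gave -0.996 for Cebpb, 0.139 for Cebpd and -0.238 for Klf4, and merged strands -0.302 for Cebpb and 0.0738 for Cebpd. With 1 library left out Cebpb had -0.290 (without 346) to 0.606, and -0.256 without 179, Cebpd -0.392 to 0.0890 (without 346) and Cebpe -2.67 (without 349) to 6.23. The cause of these changes was not tested. No paired analysis was possible because the groups share no replicate numbers. Tiles of 3 C positions and 2 GMP libraries a group limit the precision.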
